A study of Homo sapiens with 6 samples.

Results

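The T-box genes of the primitive streak and mesoderm examined here are EOMES, TBXT (listed under its older symbol T, the gene for brachyury), TBX6, TBX3 and TBX2. They were taken as every peak of 3 β-catenin peak lists whose assigned gene bears one of these names, at any distance from the transcription start site (TSS). The rule found 8 of 3126 peaks: 3 of 1813 in the CHIR+SB list, 5 of 1053 in the CHIR list and 0 of 260 in the RPMI list. These 8 peaks belonged to 3 of the 5 genes, EOMES, TBXT and TBX3. TBX6 and TBX2 had no peak in any list.

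The lists come from chromatin immunoprecipitation followed by sequencing (ChIP-seq) against β-catenin in SA121, a single human embryonic stem cell line. Cells grown in DEF-CS medium spent 6 h in RPMI-1640 with CHIR99021 and SB431542 (CHIR+SB), with CHIR99021 alone (CHIR), or with neither (RPMI, labelled mock). CHIR99021 inhibits the kinase GSK3 and so stabilises β-catenin, while SB431542 inhibits the type I receptors of activin, Nodal and TGFβ. Each condition had 1 β-catenin library and 1 library with control goat IgG, each made from pooled parallel ChIPs, so there was no replicate. The series asks where β-catenin binds once it is stabilised, and how this differs when activin/Nodal signalling is blocked. Peak lists hold no expression values, so the labelled cell type could not be checked against marker genes.

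T-box proteins are transcription factors that share a DNA-binding domain, the T-box. Brachyury and EOMES are among the first genes switched on in the primitive streak, where Wnt and Nodal signals meet, and in the mouse EOMES is also needed for definitive endoderm. TBX6 acts slightly later, in paraxial mesoderm, while TBX2 and TBX3 are mainly repressors, known from limb and heart development. β-catenin does not bind DNA itself; it is brought to DNA by TCF/LEF factors. In the mouse, TCF/LEF sites near the brachyury gene are known to carry part of its response to Wnt.

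The lists held 39022 β-catenin reads in CHIR+SB, 39408 in CHIR and 6272 in RPMI, beside 12664, 4362 and 1294 IgG reads. By the authors' scaling factors, a unit of normalized count stood for 1.14 (CHIR+SB) and 1.67 (CHIR) times as many β-catenin reads as in RPMI. For IgG reads the values were 1.75 and 0.976 times. Whether the factors follow library depth is not stated. The weakest listed peak had 12 reads in CHIR+SB, 20 in CHIR and 15 in RPMI. Counts are given below only where a peak was listed, so a gene with no peak has no count in that library. Signal means the authors' normalized read count of the peak. All intervals are exact 95% intervals of the read counts and cover counting error only.

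By gene, 2 of 5 members had a peak in CHIR+SB (EOMES and TBX3), 3 of 5 in CHIR (EOMES, TBXT and TBX3) and 0 of 5 in RPMI. Among 20056 protein-coding genes, 6.25% had an assigned peak in CHIR+SB, 3.80% in CHIR and 1.14% in RPMI. The members were chosen with these lists known, so the counts are a description and were not tested. Of their sites, the one upstream of EOMES was the only one shared between lists. EOMES is described first, then TBXT, TBX3 and the genes without a peak.

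**Figure D1:**
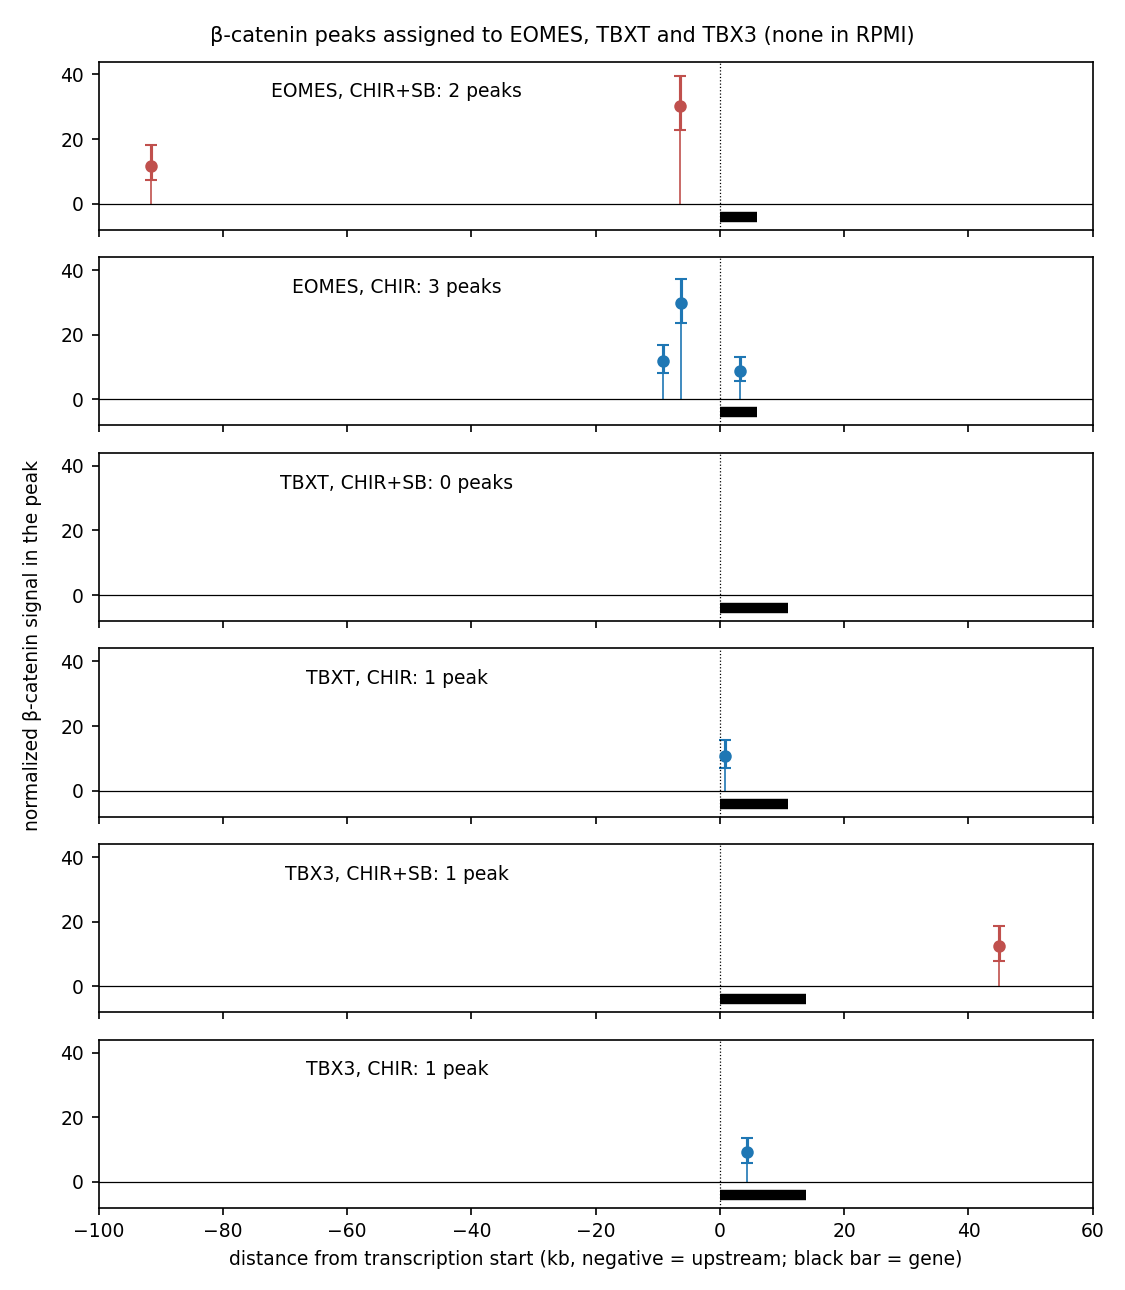
Normalized β-catenin signal (vertical axis) of each peak assigned to EOMES, TBXT and TBX3 against its distance from the TSS along the gene in kb, with a panel for each gene and condition (CHIR+SB above CHIR). Points are peak centres at their true distance, bars are exact 95% counting intervals, and the black bar is the gene; the peak 6.36 kb (CHIR+SB) and 6.31 kb (CHIR) upstream of EOMES is the only one seen at the same place in both conditions.

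EOMES had the strongest peak of the group, a site upstream of the gene that was present at nearly the same normalized signal with and without the receptor inhibitor. In hg19 coordinates the peak was chr3:27769832-27770465 in CHIR+SB and chr3:27769664-27770519 in CHIR, centred 6.36 and 6.31 kb upstream of the TSS on the minus strand. The CHIR+SB peak lay wholly inside the CHIR peak, and the centres were 57 bp apart. It held 54 β-catenin and 24 IgG reads in CHIR+SB, against 78 β-catenin and 8 IgG reads in CHIR. After scaling by the authors' factors, the normalized signals were 30.4 in CHIR+SB and 29.95 in CHIR.

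The ratio of these signals, CHIR+SB over CHIR, was 1.01 (0.703 to 1.45). The interval covers both a fall and a rise of moderate size, so equal signal is not shown. The ratio rests on the authors' factors, whose basis is not stated. From the reads as counted, without these factors, it was 0.692 (0.480 to 0.992). This alternative was added after the data were seen. Of all 642 peaks that overlapped one-to-one between both lists, 51.4% had a lower ratio than EOMES, which puts it at the middle of the table. Leaving out the factors scales the ratio of every pair alike, so EOMES keeps this place with the reads as counted. Past a 2-fold ratio, 2.02% of these pairs were higher and 1.25% lower in CHIR+SB, and EOMES was in neither set. The CHIR+SB peak was 633 bp wide and the CHIR peak 855 bp. Per kb of peak the signal was 47.99 in CHIR+SB and 35.03 in CHIR, a ratio of 1.37. This is still within the counting interval.

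In RPMI no peak was listed at EOMES. At the CHIR+SB or the CHIR signal the upstream site would have held 47.4 or 46.7 reads in that library, where the weakest peak had 15. Of the RPMI peaks, 93.8% had fewer than 46.7 reads, so a site of equal height would have stood among the highest RPMI peaks.

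The IgG signal at this site was 9.45 (6.05 to 14.1) in CHIR+SB and 5.65 (2.44 to 11.1) in CHIR, a ratio of 1.67 with an interval of 0.728 to 4.31 that includes 1. By IgG count the site ranked 7th of the 1813 peaks in CHIR+SB and 69th of the 1053 in CHIR. β-catenin over IgG was 3.21 (1.95 to 5.44) in CHIR+SB and 5.31 (2.56 to 12.7) in CHIR, and the intervals overlap. This too depends on the factors. Of the reads as counted, the ratios were 2.25 (1.37 to 3.81) in CHIR+SB and 9.75 (4.71 to 23.4) in CHIR, and these intervals do not overlap. The whole lists differ in the same direction: 39022 β-catenin and 12664 IgG reads in CHIR+SB, against 39408 and 4362 in CHIR. Nothing particular to EOMES is read from the reads as counted. With IgG signal subtracted, the ratio of CHIR+SB to CHIR was 0.861. The part of IgG in the comparison was not tested.

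**Figure D2:**
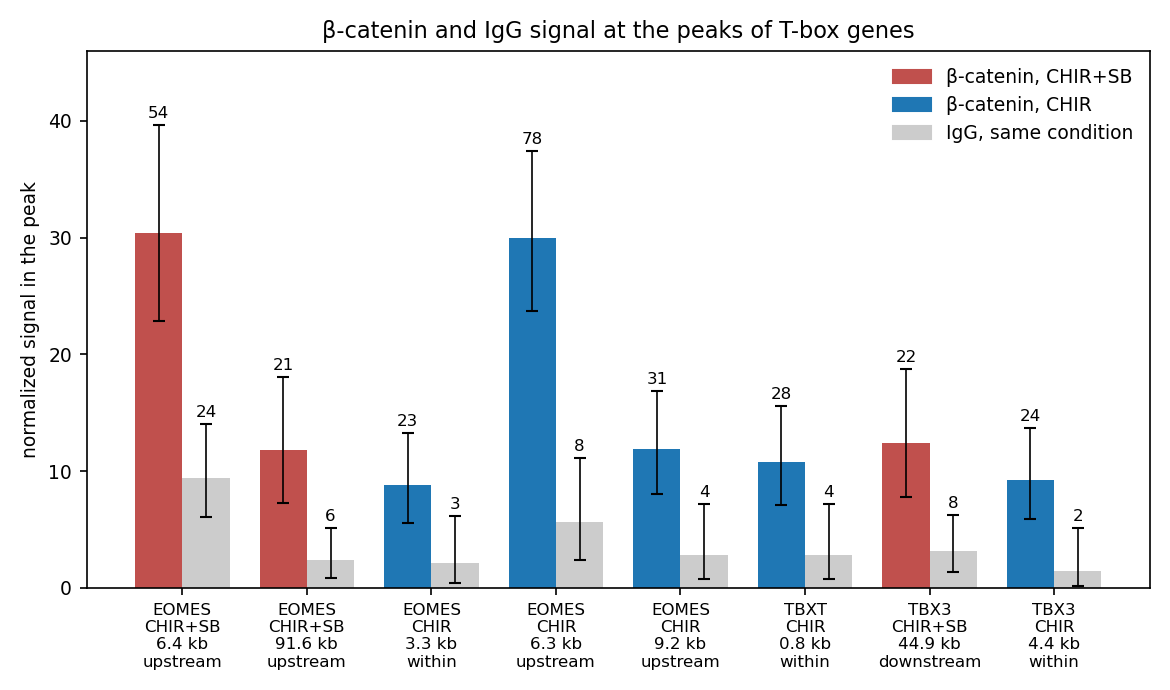
Normalized signal of β-catenin (coloured bars) and of IgG in the same condition (grey bars) at each of the 8 peaks, with exact 95% counting intervals and the read count above each bar. The upstream EOMES peak is the highest in CHIR+SB (54 reads) and in CHIR (78 reads) and has the most IgG reads in each (24 and 8); the other β-catenin bars lie between 8.83 and 12.4.

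Besides this site, 2 EOMES peaks were listed in CHIR alone and a further one in CHIR+SB alone. In CHIR, a peak at chr3:27772816-27773144 lay 9.20 kb upstream of the TSS, with 31 β-catenin and 4 IgG reads and a signal of 11.9. It stood 2297 bp beyond the strong CHIR peak. A weaker CHIR peak, chr3:27760392-27760602, lay within the gene, 3.29 kb from the TSS, with 23 β-catenin and 3 IgG reads and a signal of 8.83. Neither overlapped a CHIR+SB peak.

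At the same signal these sites would have held 21.2 and 15.7 reads in the CHIR+SB library, and the weakest peak listed there had 12. Both values lie above that minimum, although the threshold the authors applied is not stated. Each list was also split by signal into 4 groups of about equal size. In the CHIR group of the peak at 9.20 kb, 53.9% overlapped a CHIR+SB peak. In the lowest CHIR group, which holds the intragenic peak, 32.6% did. In CHIR+SB, the second EOMES peak was chr3:27855130-27855541, 91.6 kb upstream, with 21 β-catenin and 6 IgG reads and a signal of 11.8. The nearest CHIR peak was 82.4 kb away, also at EOMES. At equal signal the distant peak would have held 30.8 reads in CHIR, where the weakest peak had 20. Of the CHIR+SB peaks in its signal group, 179 of 446 (40.1%) overlapped a CHIR peak. An assignment over such a distance rests on EOMES being the gene the authors' annotation chose.

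Summed over its peaks, EOMES had 75 β-catenin and 30 IgG reads over 1044 bp in CHIR+SB, against 132 and 15 reads over 1393 bp in CHIR. The summed signals were 42.2 in CHIR+SB and 50.7 in CHIR. With 3 peaks EOMES was one of 20 genes of the CHIR list, out of 928, to have at least 3. Its intragenic peak and its peak at 9.20 kb were weakly supported by the lists' local −log10 p-value, whose test is not stated. The values were 0.960 and 1.45, where the median of the CHIR list was 4.97. With 2 peaks in CHIR+SB it was one of 223 genes, out of 1511, to have at least 2.

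TBXT had a single peak, close to its start and listed in CHIR alone. It was chr6:166581261-166581540, centred 0.757 kb from the TSS within the gene, on the minus strand. The peak held 28 β-catenin and 4 IgG reads in CHIR, a signal of 10.8 (7.14 to 15.5), and β-catenin over IgG was 3.81 (1.33 to 14.9). At that signal it would have held 19.1 reads in CHIR+SB and 16.8 in RPMI. These lie above the weakest listed peaks of 12 and 15 reads, by little in RPMI, so the lists do not separate an absent peak from one below the threshold.

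Of the CHIR+SB peaks, 61.7% had fewer than those 19.1 reads. When the CHIR list was split into 4 groups of about equal size by signal, TBXT fell in the group next to the lowest, where 145 of 269 peaks (53.9%) overlapped a CHIR+SB peak. CHIR peaks of this strength without a CHIR+SB partner were thus common.

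The 2 RefSeq starts of TBXT are shown because the peak lies near the position of the second. The CHIR peak covers the stretch from 617 to 896 bp downstream of the TSS used in the lists. In RefSeq (GRCh38.p14) the second start lies 804 bp downstream of the first. Coordinates were not moved between builds, so the starts were not placed on hg19; the gene spans 11012 bp in the lists and 11000 bp in the GRCh38.p14 table. Each window runs from 250 bases before to 50 after a start on the minus strand. The first is chr6:166168606-166168905 and the second chr6:166167802-166168101 (GRCh38.p14). Capitals mark a match to a TCF/LEF core on either strand.
TBXT, first start: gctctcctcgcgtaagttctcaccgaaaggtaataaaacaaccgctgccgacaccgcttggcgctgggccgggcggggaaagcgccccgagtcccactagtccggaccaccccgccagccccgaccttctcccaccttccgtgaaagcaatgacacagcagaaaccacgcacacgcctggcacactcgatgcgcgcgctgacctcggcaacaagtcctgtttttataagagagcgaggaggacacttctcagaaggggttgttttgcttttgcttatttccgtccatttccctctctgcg
TBXT, second start: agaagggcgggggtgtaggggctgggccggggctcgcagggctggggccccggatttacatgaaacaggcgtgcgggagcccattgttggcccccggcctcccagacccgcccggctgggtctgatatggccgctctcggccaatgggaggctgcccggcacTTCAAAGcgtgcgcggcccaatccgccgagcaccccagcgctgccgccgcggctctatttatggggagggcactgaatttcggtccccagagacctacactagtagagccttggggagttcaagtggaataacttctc

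The cores searched, on both strands, were CTTTG followed by AA, AT, TA or TT. The window of the second start held 1 match, CTTTGAA read on the opposite strand, beginning 88 bases before that start. The window of the first start held none. The T-box half-site GGTGTGA, which overlaps none of these cores, was found in neither. Windows of this length for EOMES and TBX6 held no match to a core or to the half-site. TBX3 and TBX2 were not searched. Over all 35116 windows in the table, 13.8% held a TCF/LEF core and 3.45% the half-site, so a single match is not rare. A match is a description of the letters and not a binding site.

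TBX3 had 1 peak in each of the lists with inhibitor, at different places. In CHIR+SB it was chr12:115076823-115077252, beyond the end of the gene and 44.9 kb from the TSS, with 22 β-catenin and 8 IgG reads. In CHIR it was chr12:115117469-115117691, within the gene 4.39 kb from the TSS, with 24 β-catenin and 2 IgG reads. The centres were 40.5 kb apart. Signals were 12.4 (7.76 to 18.7) in CHIR+SB and 9.22 (5.90 to 13.7) in CHIR.

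No ratio was taken for TBX3, since these are separate sites. The CHIR+SB site would have held 32.2 reads in CHIR at equal signal, above that list's minimum of 20. Of the CHIR+SB peaks in its signal group, however, 179 of 446 (40.1%) overlapped a CHIR peak. In the signal group of the CHIR site, 87 of 267 (32.6%) overlapped a CHIR+SB peak. Peaks of this strength without a partner in the other list were thus common. The CHIR site would have held 16.4 reads in CHIR+SB, above the minimum of 12, but 14.4 reads in RPMI, below the 15 reads of its weakest peak. In RPMI a TBX3 site of that signal could not have been told from an unlisted one. The CHIR+SB site would have held 19.3 reads in RPMI, above that minimum, and 48.1% of the RPMI peaks had fewer.

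TBX6 and TBX2 had no peak at any distance. A peak nearby could have been assigned to another gene, so neighbouring genes were looked up in the order of the GRCh38.p14 table. Only protein-coding genes were looked up, so a nearby peak assigned to a non-coding gene would not have been seen. Around TBX6, 64 protein-coding genes on one side and 12 on the other had no peak in either CHIR+SB or CHIR, up to HS3ST4 and ZNF48. Around TBX2, 27 protein-coding genes had no peak before RNF43 in CHIR+SB, and 43 before AKAP1 in CHIR. On the other side of TBX2, 44 had none before AXIN2, the feedback inhibitor of Wnt signalling, in either list. TBX4, the T-box gene beside TBX2, was among those without a peak.

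Peaks given to other genes were also sought within 200 kb of the TSS of EOMES, TBXT and TBX3. Near EOMES, 188.7 kb from its TSS beyond the end of the gene, each list with inhibitor had a peak assigned to SLC4A7, which encodes a bicarbonate transporter. It held 43 β-catenin and 9 IgG reads in CHIR+SB, against 38 and 1 in CHIR. The signals were 24.2 in CHIR+SB and 14.6 in CHIR, a ratio of 1.66 (1.05 to 2.64), with a width ratio of 1.30. Per kb of peak the ratio was 1.28, and with IgG signal subtracted 1.49. All 3 rest on the authors' factors, and the reads as counted, 43 and 38, lie closer together than the signals. A difference at this site was not tested. Near TBXT, CHIR had a peak of 23 β-catenin and 4 IgG reads, 85.5 kb upstream and assigned to PRR18, while CHIR+SB had none. TBX3 had no other peak within that distance, and RPMI had none near any of the 3 genes.

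**Figure D3:**
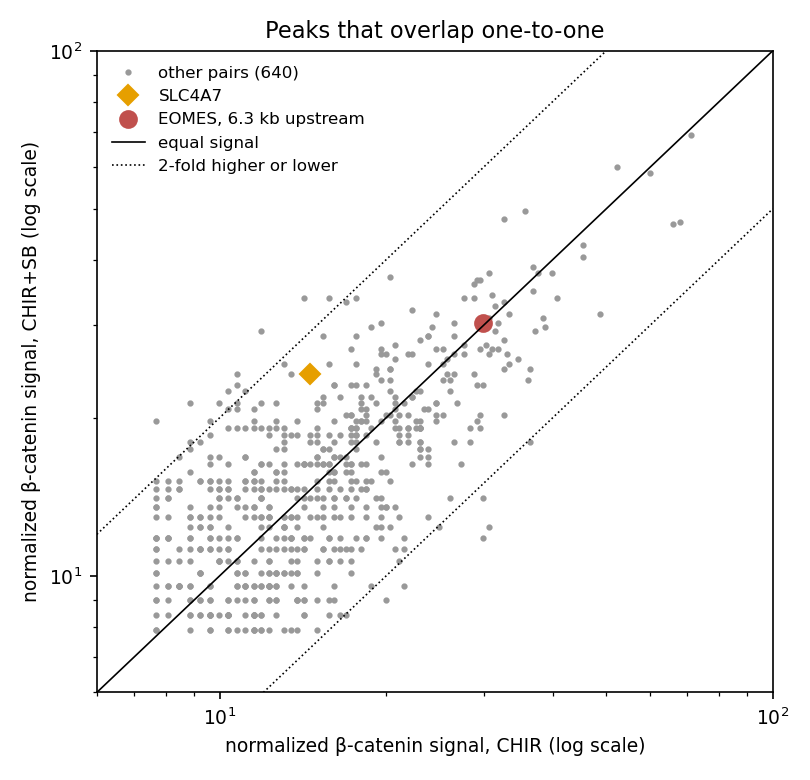
Normalized β-catenin signal in CHIR+SB (vertical, log scale) against CHIR (horizontal, log scale) for the 642 peaks that overlapped one-to-one, with lines for equal signal and for a 2-fold difference. The EOMES pair lies on the line of equal signal (30.4 and 29.95), the SLC4A7 pair above it (24.2 and 14.6), and the other 640 pairs are grey.

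Few of the group's peaks recurred between lists. Of the member peaks, 1 of 3 in CHIR+SB overlapped a CHIR peak, where 36.6% of all CHIR+SB peaks did. In the other direction 1 of 5 in CHIR overlapped a CHIR+SB peak, where 63.3% of all CHIR peaks did. None of the 3 CHIR+SB and 5 CHIR peaks overlapped an RPMI peak, against 8.77% and 17.0% of all peaks in those lists. The nearest RPMI peak was 3290 kb from a TBX3 peak and farther from the others. With so few peaks these shares were not tested, and nothing particular to the T-box genes is read from them.

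By signal, the upstream EOMES peak ranked 38th of 1813 in CHIR+SB and 44th of 1053 in CHIR. By β-catenin over IgG it stood low in CHIR+SB, where 14.6% of peaks had a lower ratio, against 58.9% in CHIR. Again by signal, TBX3 ranked 516th and the distant EOMES peak 559th in CHIR+SB. All 3 peaks of EOMES and TBX3 there thus lay above the list's median of 9.56. In CHIR, the EOMES peak at 9.20 kb ranked 518th, TBXT 618th, TBX3 787th and the intragenic EOMES peak 828th. These 4 lay at or below the CHIR median of 11.9. β-catenin exceeded IgG at all 8 peaks by an interval above 1, which the listing itself favours, since the weakest ratio in any list was 2.22.

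**Figure D4:**
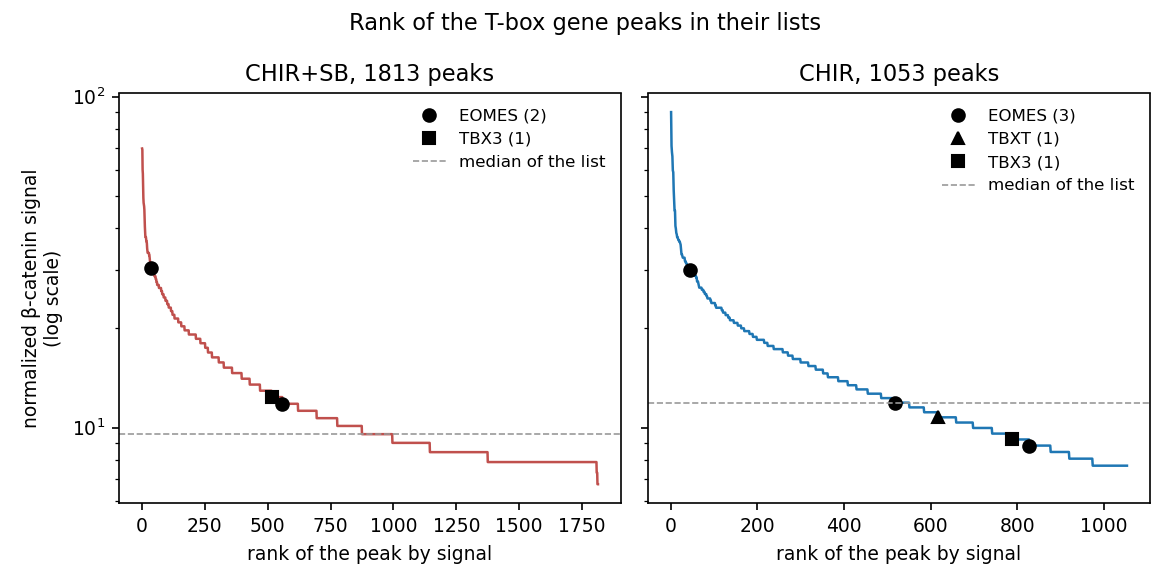
Normalized β-catenin signal (vertical, log scale) of every peak against its rank in the list, for CHIR+SB (left) and CHIR (right), with the peaks of EOMES, TBXT and TBX3 marked and the list's median dashed. The upstream EOMES peak ranks 38th and 44th, and all other marked peaks rank between 516 and 828.

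By position, 0 of 3 member peaks in CHIR+SB and 3 of 5 in CHIR lay within their gene, 2 and 2 lay upstream, and 1 and 0 downstream. In the whole lists 33.6% of CHIR+SB peaks and 33.1% of CHIR peaks lay within a gene, 38.5% and 42.9% upstream, and 27.9% and 23.9% downstream. TBXT, TBX3 and EOMES each had 1 intragenic CHIR peak, and none of the 3 overlapped a CHIR+SB peak. Of all 349 intragenic CHIR peaks, 61.3% overlapped one, but in the lower signal groups fewer CHIR peaks did: 53.9% in the group of TBXT and 32.6% in the lowest, which holds those of TBX3 and EOMES. Nothing particular to these genes is read from the 3. Their distances from the TSS were 0.757, 4.39 and 3.29 kb, and their signals 10.8, 9.22 and 8.83.

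The other T-box genes and the other genes of the streak and early mesoderm were taken from 2 lists. Of 12 other T-box genes, 1 had a peak in CHIR+SB, 0 in CHIR and 0 in RPMI. That was TBX18, a regulator of heart and urinary tract development, with 18 β-catenin and 4 IgG reads 244 kb from its TSS. Of 38 streak and mesoderm genes outside the family, 16 had a peak in CHIR+SB, 17 in CHIR and 1, WNT8A, in RPMI. Both CHIR+SB and CHIR had a peak for 14 of them. Among all 20056 protein-coding genes, 6.25% had a peak in CHIR+SB, 3.80% in CHIR and 1.14% in RPMI. The shares were 8.33%, 0% and 0% for the other T-box genes, and 42.1%, 44.7% and 2.63% for the streak and mesoderm genes. These lists were chosen with earlier results of the data known, so the shares were not tested.

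Among all genes of these lists with a peak, the members included, EOMES had the fifth highest peak of 19 in CHIR+SB and the fourth highest of 20 in CHIR. EVX1, SP5 and CDX2 stood above it in both, with MIXL1 above it in CHIR+SB and below it in CHIR. EOMES had 54 reads in CHIR+SB and 78 in CHIR, against 60 and 75 for MIXL1, and the ratio of their signals, EOMES over MIXL1, was 0.90 (0.611 to 1.32) in CHIR+SB and 1.04 (0.748 to 1.45) in CHIR. At each of the 10 places in the order where a member stands next to another gene, the interval of the ratio included 1. Neighbours in an order by signal have close signals by construction, so this shows only that the order is uncertain. TBX3 was 14th in CHIR+SB and 19th in CHIR, and TBXT was 16th in CHIR with the same 28 reads as SP8.

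The genes whose peaks came nearest to the EOMES pair in signal were sought among 493 one-to-one pairs of other genes without an RPMI peak. They were TRABD2A, FOXB1 and SLC2A1-AS1, at distances of 0.033, 0.045 and 0.090 on the log2 scale over these 2 libraries. TRABD2A had 53 reads in CHIR+SB and 77 in CHIR, and FOXB1 had 55 and 80. Likeness over 2 libraries, each with its own counting error, orders the peaks by height and says little more.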

How the data were processed

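β-catenin ChIP-seq peak lists of 3 libraries were used, and IgG only through the reads listed beside each peak. The submitters' processing notes name Bowtie and the builds mm9 and hg19, and the gene positions in these lists are those of hg19. For the Bowtie version, peak caller and threshold, nothing is stated. The deposited read counts are whole reads within a peak. The deposited normalized signal is the count times 1 factor per library, and its basis is not stated. Decimal commas were read as points. Doses are left out because their unit could not be verified.

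Peaks overlapped when they shared at least 1 bp, and ratios were taken at one-to-one overlaps over the whole table. Intervals are exact: Poisson for a count, conditional binomial for a ratio. Names were matched to the RefSeq table (GRCh38.p14) for 99.4%, 99.3% and 100% of peaks in CHIR+SB, CHIR and RPMI. Promoter windows of 3 of the 5 genes came from RefSeq. Other genes were named where they lay within 200 kb of a member, stood in the 2 lists, or were the 3 nearest to a member in signal. Overlap and intervals were tested on simulated data. Python 3.11.15 and scipy 1.17.1 were used. The members and lists were chosen with earlier results of these data known.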

Additional observations from a re-analysis of the deposited data

How the results depend on the processing

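No paired analysis was possible because each condition had 1 β-catenin library, so no replicate could be left out either. Of 48 alternative values, 40 stayed and 8 moved. Some of the 40 could not move: the distance and signal limits only remove peaks, so a count of 0 stays 0. A value stayed if it lay within the counting interval or, where no interval was given, within 1.5 times the value given above. Within 10 kb of the TSS, 1 member (EOMES) had a peak in CHIR+SB, in place of 2. Above the median signal of its own list, 1 member (EOMES) had a peak in CHIR, in place of 3. Above the highest of the lists' minimum signals, 9.61, CHIR had 2 members (EOMES and TBXT), since the TBX3 peak fell below it, and CHIR+SB also had 2. Within 50 kb, 0 other T-box genes had a peak in CHIR+SB, in place of 1. Of one-to-one pairs past 2-fold, 13 were higher in CHIR+SB and 8 lower. Per kb of peak width these were 21 and 13, and with an overlap of at least 50% of both peaks, which left 491 pairs, 4 and 3. The EOMES ratio was 0.692 from reads as counted, which lies outside the counting interval and is among the 8 that moved. Without the factors the ratios of all one-to-one pairs shift alike, so this move is not particular to EOMES. The EOMES ratio was 0.861 with IgG subtracted and 1.37 per kb, both within the interval. From reads as counted, β-catenin over IgG was between 2.25 and 3.50 at the CHIR+SB peaks and between 7 and 12 at the CHIR peaks. Every interval lay above 1. The whole lists differ in the same direction, with 39022 β-catenin and 12664 IgG reads in CHIR+SB, against 39408 and 4362 in CHIR. At 21 to 31 reads, the weaker peaks allow no ratio finer than their intervals.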

Other observations

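The lists also give a −log10 p-value called local, whose test is not stated. In CHIR it was 0.960 for the EOMES peak within the gene, and 6 of 1053 peaks had a lower value. It was 1.45 for the EOMES peak at 9.20 kb, with 15 peaks lower, and 3.84 for the strong upstream peak. TBX3 had 3.50 and TBXT 5.80 in CHIR, where the median of the list was 4.97. In CHIR+SB the values were 5.37 for the upstream EOMES peak, 4.02 for the distant one and 5.80 for TBX3, with a median of 4.77.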
